A study of Mus musculus with 30 samples.

Results

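The genes described here were the target of 5-fluorouracil (5-FU) and the enzymes that activate it, break it down or act on its nucleotides: Tyms, Umps, Tk1, Upp1, Tymp, Dut, Dpyd, Dpys and Upb1. They were chosen by symbol and made up 9 of the 21841 genes in the table. Of the 9, 8 passed the filter on low counts and were tested, and Dpys did not pass.

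5-FU is an analog of uracil that becomes toxic only after cells convert it to nucleotides. Thymidylate synthase (Tyms) makes dTMP from dUMP for DNA synthesis, and the deoxynucleotide of 5-FU binds and blocks it. The drug reaches its nucleotides through orotate phosphoribosyltransferase (Umps) or through the phosphorylases of uridine (Upp1) and thymidine (Tymp). The thymidine phosphorylase route continues through thymidine kinase (Tk1). The dUTPase (Dut) removes dUTP and the 5-FU form of it before they enter DNA. Dihydropyrimidine dehydrogenase (Dpyd), dihydropyrimidinase (Dpys) and beta-ureidopropionase (Upb1) degrade uracil and 5-FU in sequence, mainly in the liver.

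RNA was sequenced from whole mammary tumors of MMTV-PyMT animals, whose strain is labelled FVB/N-Tg(MMTV-PyVT)634Mul/J and in which the mouse mammary tumor virus promoter drives the polyoma middle T oncogene in mammary epithelium and tumors arise spontaneously. All groups carried this transgene, and the labels give the genotype as WT. There were 6 groups of 5 libraries: vehicle, each of the chemotherapies 5-FU and gemcitabine alone, the heme oxygenase-1 inhibitor KCL-HO-1i alone, and the inhibitor together with 5-FU (KCL-HO-1i/5-FU) or with gemcitabine (KCL-HO-1i/gemcitabine). Gemcitabine is a cytidine analog that blocks DNA synthesis. Per the labels, drugs were injected intraperitoneally over 72 hours, 5-FU (40 mg/kg) once in 4 days, gemcitabine (64 mg/kg) once in 7 days and KCL-HO-1i (25 µmol/kg) once a day. The study's own methods differ from the labels in time and gemcitabine dose. The age of the mice is not given in the labels. The comparisons address whether the target and the metabolism of 5-FU differ between tumors given the drug alone, KCL-HO-1i alone or both.

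Total counts ran from 10067577 to 13622264 per library. The 9 luminal epithelial markers used to check the tissue (Epcam, Krt8, Krt18 and others) were above 0 in all 30 libraries, with a summed level of 2859 to 6463 CPM (counts brought to a common library total, here with TMM scaling). Each library has its own code in the labels, and the number that opens the code takes 13 values over the 30 libraries. Several values are shared between groups, but vehicle shares only 1 of its values with any other group. The most frequent value covers most libraries of 5-FU and of gemcitabine and no library given KCL-HO-1i. What this number stands for is not stated. Comparisons with vehicle and the KCL-HO-1i average therefore go largely together with differences in this number, and cannot be fully separated from them. The labels do not say that the libraries of a group came from separate mice, but the study's text describes them as separate mice and tumors, so the p-values measure the spread between these tumors. In whole tumors, fewer cells of a type and less RNA per cell cannot be told apart.

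No gene of the 9 changed past an adjusted p of 0.05 in any of the 11 comparisons (edgeR quasi-likelihood test, Benjamini-Hochberg over 13663 genes). The background was low as well. In 9 of the 11 comparisons 0% of all tested genes passed that threshold, against 0.0586% for KCL-HO-1i averaged over vehicle, 5-FU and gemcitabine, and 0.651% for any difference among the 6 groups. With DESeq2 the count was 1, for Umps, in KCL-HO-1i/5-FU against vehicle, in the KCL-HO-1i average and for any difference, and with limma-voom it was 1 in the first and last of these. At an unadjusted p under 0.05 in edgeR, 4 genes were lower in at least 1 comparison (Tyms, Umps, Dut and Upb1) and none was higher, where 26.2% of all tested genes were lower and 28.9% higher in at least 1 of the 10 comparisons that have a direction. Tk1, Dpyd, Upp1 and Tymp had no unadjusted p under 0.05 in any of the 11 comparisons. The group means of Tyms, Umps, Dut and Upb1 were each lowest in KCL-HO-1i/5-FU. For Upb1 the step to the next group was within the larger SD of the pair. The share of all tested genes with their lowest mean in this group is not given.

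**Figure D1:**
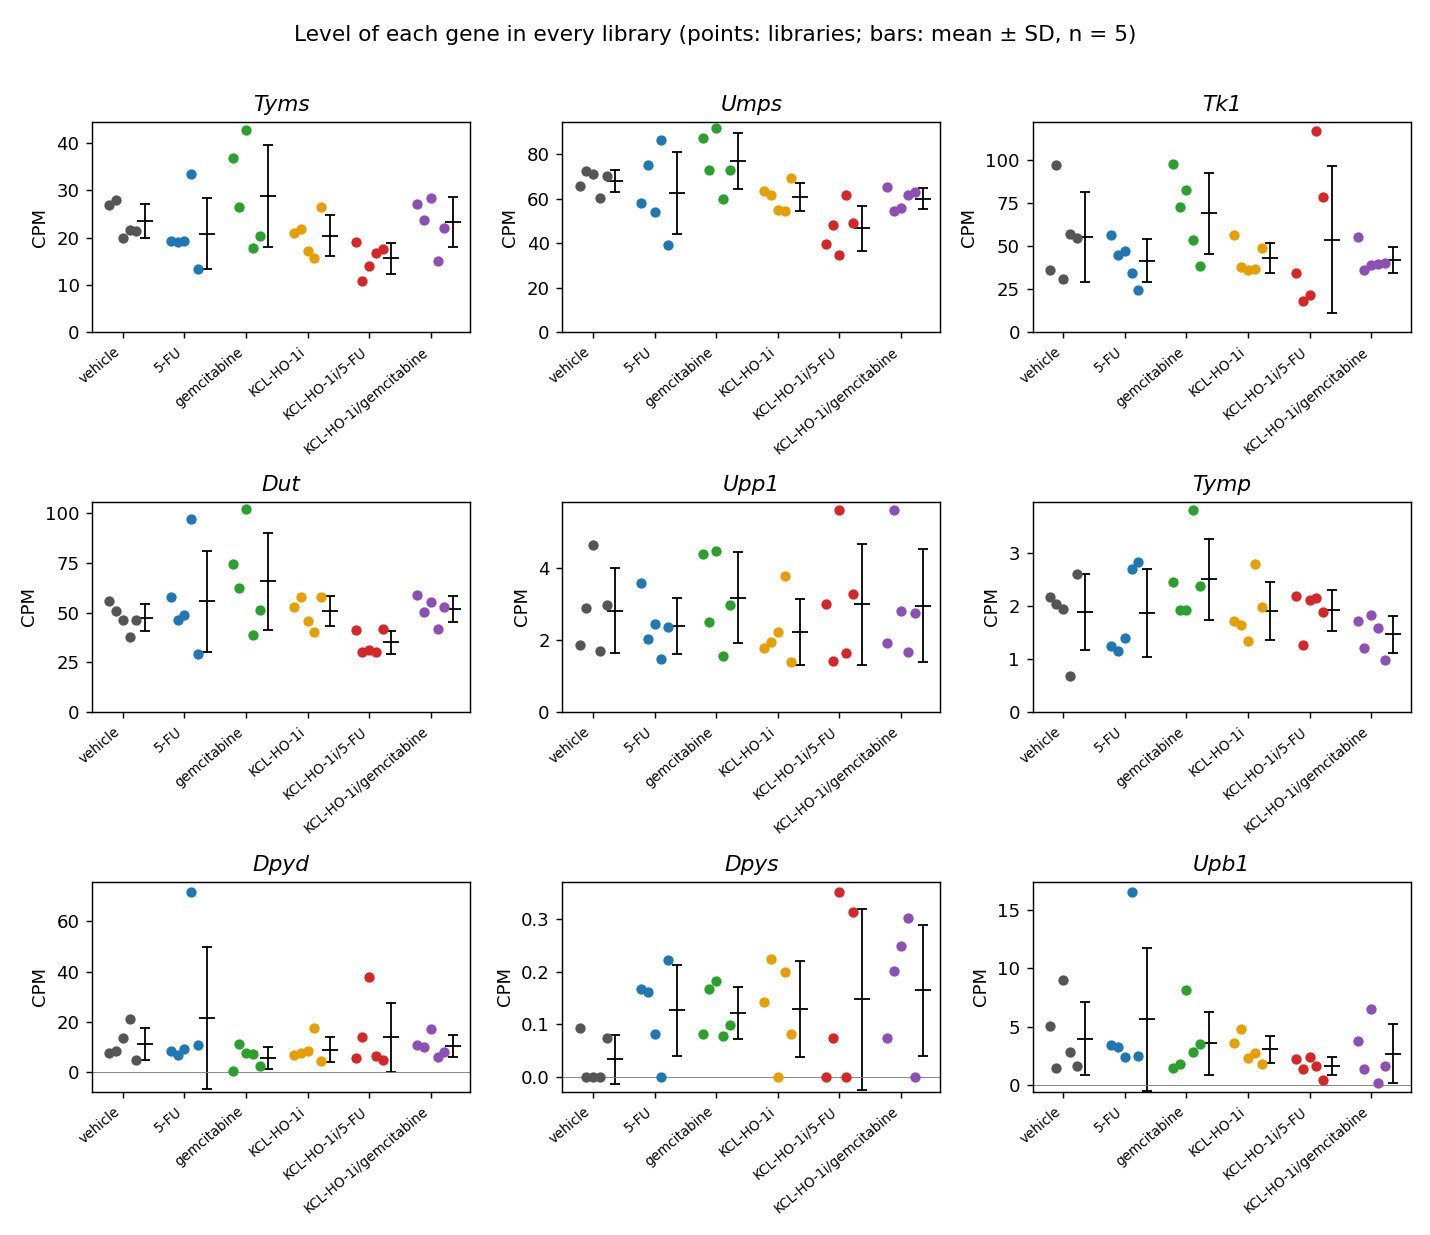
CPM (vertical axis, linear) of the 9 genes in every library of the 6 groups, as points, with the mean ± SD of 5 libraries beside them. Tyms, Umps, Dut and Upb1 have their lowest group mean in KCL-HO-1i/5-FU. Dpyd and Upb1 have single high libraries such as 71.7 and 16.6 CPM in 5-FU replicate 4, and Dpys stays under 0.4 CPM.

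Levels between genes were compared as CPM per kilobase of transcript, averaged over the 30 libraries. Tk1 (35.3 ± 16.5, SD, n = 30) and Dut (34.4 ± 11.3) were the most abundant, and their order was not stable, since Tk1 was above Dut in 11 of 30 libraries. Umps followed at 17.9 ± 3.87 and Tyms at 7.00 ± 2.23, and each step down to them held in 30 of 30 libraries. Dpyd averaged 4.78 ± 5.25 CPM per kilobase and was below Tyms in 24 of 30 libraries. Upp1 (2.21 ± 0.968), Upb1 (1.13 ± 1.05) and Tymp (0.941 ± 0.318) were low, and Upb1 was above Tymp in 14 of 30 libraries. By group means, Tk1, Dut and Umps held the first 3 places in all 6 groups, and Dpyd was above Tyms in 5-FU (8.55 ± 11.2 against 6.60 ± 2.35 CPM per kilobase, SD, n = 5) and in KCL-HO-1i/5-FU (5.53 ± 5.50 against 4.95 ± 1.04), within the larger SD in both. The ratio of Tyms to Dpyd per kilobase had a median of 2.62 in vehicle (0.807 to 3.31), 1.66 in 5-FU (0.37 to 2.18) and 2 in KCL-HO-1i/5-FU (0.295 to 2.84). These ranges overlap widely.

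Tyms (ENSMUSG00000025747, chromosome 5, 30058202 to 30073617, minus strand, mm10) encodes the target of the drug. In vehicle it measured 26.9, 28.0, 20, 21.6 and 21.4 CPM in replicates 1 to 5. In KCL-HO-1i/5-FU it measured 19.1, 10.8, 14.0, 16.8 and 17.6 CPM. All 5 KCL-HO-1i/5-FU libraries lay below the lowest vehicle library, so these groups did not overlap, although the gap between 19.1 and 20 was small. How many of all tested genes separate in this way is not given, so this describes the values alone. The 5-FU libraries had 19.2, 19.1, 19.3, 33.4 and 13.4 CPM and overlapped with both groups. Tyms is needed when cells copy their DNA, and its highest single values were in gemcitabine, at 36.9 and 42.9 CPM in replicates 1 and 3. The group means, from low to high, were 15.6 ± 3.30 CPM in KCL-HO-1i/5-FU, 20.5 ± 4.28 in KCL-HO-1i, 20.9 ± 7.43 in 5-FU, 23.3 ± 5.26 in KCL-HO-1i/gemcitabine, 23.6 ± 3.62 in vehicle and 28.9 ± 10.8 in gemcitabine (SD, n = 5). Only the first of these steps, from KCL-HO-1i/5-FU to KCL-HO-1i, exceeded the larger SD of its pair of groups.

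Umps (ENSMUSG00000022814, chromosome 16, 33954782 to 33967038, minus strand) completes the de novo synthesis of UMP and can attach the sugar phosphate to 5-FU directly. It varied least among the vehicle libraries, at 65.6, 72.4, 71, 60.3 and 70.4 CPM. In KCL-HO-1i/5-FU the values were 39.8, 48.3, 34.7, 61.5 and 48.9 CPM. In this group 4 of the 5 libraries lay below every vehicle library, and replicate 4 overlapped with them. The means were 46.7 ± 10.2 CPM in KCL-HO-1i/5-FU, 60.1 ± 4.81 in KCL-HO-1i/gemcitabine, 60.8 ± 6.16 in KCL-HO-1i, 62.6 ± 18.5 in 5-FU, 68.0 ± 5.04 in vehicle and 77 ± 12.8 in gemcitabine (SD, n = 5). As for Tyms, only the step from KCL-HO-1i/5-FU to the next group exceeded the larger SD. All 15 libraries given KCL-HO-1i lay below the median of the 15 libraries without it. The share of all tested genes with such separations is not given, so these counts describe Umps alone.

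The sequences upstream of Tyms and Umps are shown because both genes varied together with the genes of DNA replication, as described further on. They are the 250 bases before the gene start in the RefSeq annotation of GRCm38.p6, read on the minus strand. Capitals mark a GC box, the letters GGGCGG, which lies 54 bases before the start of Tyms and 22 bases before the start of Umps.
Tyms, chr5:30073626-30073875: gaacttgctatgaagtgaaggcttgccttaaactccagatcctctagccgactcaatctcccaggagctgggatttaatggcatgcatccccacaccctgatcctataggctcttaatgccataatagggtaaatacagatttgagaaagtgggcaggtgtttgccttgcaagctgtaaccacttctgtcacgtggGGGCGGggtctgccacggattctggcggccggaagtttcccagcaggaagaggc
Umps, chr16:33967039-33967288: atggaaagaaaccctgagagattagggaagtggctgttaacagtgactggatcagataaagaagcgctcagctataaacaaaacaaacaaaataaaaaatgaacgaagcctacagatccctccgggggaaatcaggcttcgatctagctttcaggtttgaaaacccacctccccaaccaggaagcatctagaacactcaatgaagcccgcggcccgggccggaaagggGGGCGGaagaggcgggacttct

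Promoter windows of 300 bases were found for 8 of the 9 genes, all but Dpys. The GC box, searched as GGGCGG or CCGCCC, was in 6 of these 8 and in 35.9% of 27025 promoters of the same length. The letters TTTGGCGC or TTTCGCGC, and their reverse complements GCGCCAAA and GCGCGAAA, are core sites of the E2F factors that drive S phase genes. They were in 0 of the 8 windows and in 0.833% of all promoters. CCAAT or ATTGG was in 2 of 8, against 37.9%, and TATAAA or TTTATA in 1 of 8, against 14.2%. These windows follow the RefSeq starts, which lie up to 95 bases from the GENCODE starts for 6 of the 8 genes but 325 bases away for Dut and 5796 bases away for Upb1, 1 of the genes with CCAAT, so the windows of these genes lie inside the gene spans given here. A match is a run of letters and not a shown binding site, and a missing match says only that these letters are not in this window.

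Dut (ENSMUSG00000027203, chromosome 2, 125247190 to 125258608, plus strand) keeps uracil and 5-FU out of DNA. Its KCL-HO-1i/5-FU libraries had 41.0, 30.4, 31.2, 30.4 and 41.8 CPM. The vehicle libraries had 55.9, 50.9, 46.4, 37.8 and 46.3 CPM, and the 5-FU libraries had 57.7, 46.1, 48.6, 97 and 28.9 CPM. All 5 KCL-HO-1i/5-FU libraries lay below the median of each of these groups, but overlapped with both, since vehicle replicate 4 and 5-FU replicate 5 were low. The mean in KCL-HO-1i/5-FU was 35.0 ± 5.89 CPM, against 47.5 ± 6.68 in vehicle, 50.8 ± 7.71 with KCL-HO-1i alone, 51.7 ± 6.48 in KCL-HO-1i/gemcitabine, 55.7 ± 25.4 in 5-FU and 65.6 ± 24.3 in gemcitabine (SD, n = 5). Again the first step alone exceeded the larger SD.

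Tk1 (ENSMUSG00000025574, chromosome 11, 117815526 to 117826092, minus strand) phosphorylates thymidine and deoxyuridine analogs in the salvage pathway. Within KCL-HO-1i/5-FU it ranged widely, at 34.3, 18.2, 21.4, 117 and 78.5 CPM. Vehicle had 36.2, 97.4, 30.7, 57.3 and 54.7 CPM. Replicates 4 and 5 of KCL-HO-1i/5-FU held the highest and the fifth highest of the 30 values of Tk1, and replicates 2 and 3 the lowest pair. The mean of the group, 53.8 ± 42.5 CPM, was close to that of vehicle, 55.3 ± 26.2 (SD, n = 5).

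In 2 of the high Tk1 libraries the neighbors of the gene on the chromosome were high as well, and in others they were not. Over the 10 tested genes on each side of Tk1 (chromosome 11, 116803400 to 118419134, Mxra7 to Cant1), the median log2 deviation from each gene's mean reached 1.05 for replicate 4 of KCL-HO-1i/5-FU and 0.87 for replicate 5. In these libraries 19 and 18 of the 20 neighbors were above their means. The median was 0.59 in gemcitabine replicate 4 and lay between -0.37 and 0.26 in the other 27 libraries. Among these were other high Tk1 libraries, gemcitabine replicate 1 (98.1 CPM, neighbors at -0.37), vehicle replicate 2 (97.4 CPM, 0.09) and gemcitabine replicate 3 (82.7 CPM, -0.24). Over the 30 libraries Tk1 and the median of its neighbors had r = 0.32 and rho = 0.02, given as a description. Relative to its neighbors, Tk1 was at -0.44, -1.40, -1.09, 0.28 and -0.11 in replicates 1 to 5 of KCL-HO-1i/5-FU. Whether DNA copy number of this region differed between tumors was not tested. Over the neighbors of the other 7 tested genes, the highest median deviation in any library was 0.50, for Upp1.

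**Figure D2:**
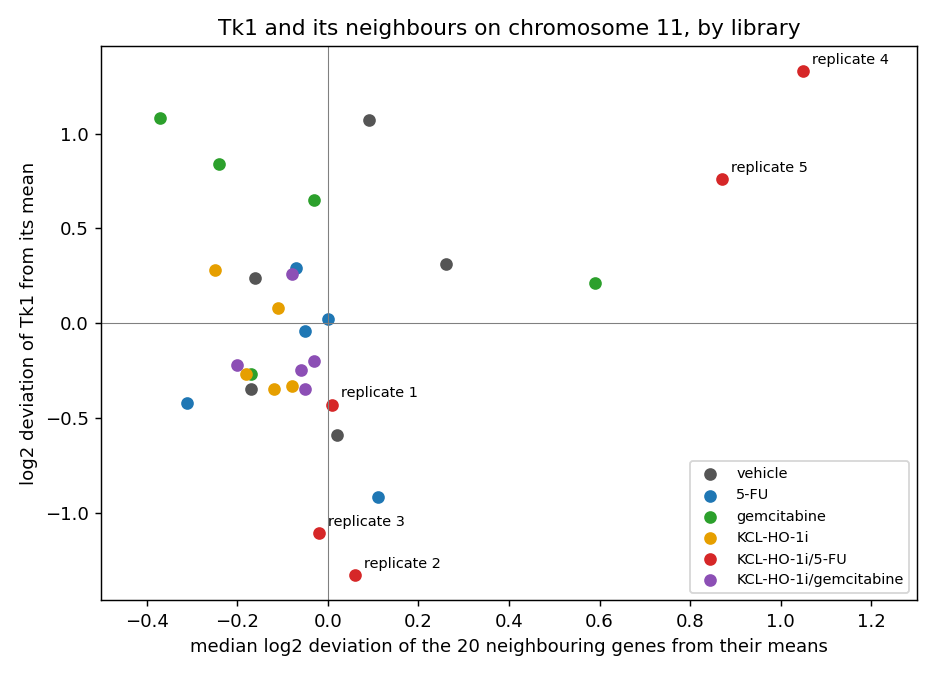
Log2 deviation of Tk1 from its mean (vertical axis) against the median log2 deviation of its 20 neighboring genes (horizontal axis), with 1 point per library, colored by group. KCL-HO-1i/5-FU replicates 4 and 5 stand apart on the right, at 1.05 and 0.87, and are also high for Tk1, while replicates 1 to 3 have neighbors near 0 and low Tk1.

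The log2 fold change of Tk1 was -0.04 (SE 0.38, adjusted p = 0.971, edgeR) for KCL-HO-1i/5-FU against vehicle and -0.23 (SE 0.22, adjusted p = 0.568, edgeR) for KCL-HO-1i averaged over its backgrounds. It was -1.18 and -0.62 without KCL-HO-1i/5-FU replicates 4 and 5. These libraries were picked after the values were seen and hold the highest Tk1 of their group, so the lower values follow from the choice and are no test of Tk1.

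The phosphorylases were near the lower limit of what these libraries resolve. Upp1 (ENSMUSG00000020407, chromosome 11, 9118103 to 9136170, plus strand) interconverts uridine and uracil. It ranged from 1.4 to 5.64 CPM over the 30 libraries. The group means of Upp1 ran from 2.23 ± 0.917 CPM in KCL-HO-1i to 3.19 ± 1.26 in gemcitabine (SD, n = 5). Tymp (ENSMUSG00000022615, chromosome 15, 89371931 to 89377039, minus strand), which interconverts thymidine and thymine, ranged from 0.678 to 3.8 CPM, or 8 to 49 reads. Its group means ran from 1.46 ± 0.351 CPM in KCL-HO-1i/gemcitabine to 2.50 ± 0.772 in gemcitabine (SD, n = 5). For Upp1 all 6 groups overlapped. For Tymp the gemcitabine libraries (1.92 to 3.8 CPM) lay above every KCL-HO-1i/gemcitabine library (0.984 to 1.82 CPM), and the other pairs of groups overlapped. The difference between these groups was not tested, and the gap between 1.82 and 1.92 CPM was small. The share of all tested genes that separate in this way is not given, so the separation describes the values alone. For both genes every step in the order of group means was within the larger SD. Tymp overlaps Sco2 on the same strand, which was at 11.9 to 24.8 CPM, and Ncaph2 on the opposite strand, at 84.5 to 159 CPM, so reads of Tymp may be assigned with error.

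Dpyd (ENSMUSG00000033308, chromosome 3, 118562129 to 119432924, plus strand) carries out the first and rate-limiting step of 5-FU breakdown. It varied most among single libraries. The 5-FU libraries had 8.36, 6.98, 9.26, 71.7 and 11 CPM, and replicate 4 set the group mean of 21.5 ± 28.1 (SD, n = 5), which was 8.91 without it. The KCL-HO-1i/5-FU libraries had 5.88, 14.2, 37.7, 6.67 and 4.93 CPM, and replicate 3 stood out. The vehicle libraries had 7.80, 8.5, 13.5, 21.3 and 5.13 CPM and the gemcitabine libraries had 0.408, 11.3, 7.60, 7.37 and 2.58 CPM. The lowest of these values was 5 reads. The log2 fold change for 5-FU against vehicle was 0.93 (SE 0.69, adjusted p = 0.999, edgeR) and was -0.34 without 5-FU replicate 4. For gemcitabine it was -0.94 (SE 0.70, adjusted p = 0.941, edgeR). The libraries with the most Dpyd had low sums of luminal markers, 4221 CPM in 5-FU replicate 4 and 2859 CPM in KCL-HO-1i/5-FU replicate 3, against a median of 5579 over all libraries.

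Dpys (ENSMUSG00000022304, chromosome 15, 39768487 to 39857470, minus strand), the second enzyme of the pathway, was hardly detected. It had 0 to 4 reads per library and none in 8 of 30 libraries. A library without reads allows a level of up to 0.215 to 0.302 CPM (3 reads, counting error only), and the group means of 0.0337 to 0.165 CPM were below this limit, so no fold change is given. Upb1 (ENSMUSG00000033427, chromosome 10, 75401115 to 75441679, plus strand), the last enzyme, was measurable but low. In 5-FU it had 3.43, 3.25, 2.38, 16.6 and 2.52 CPM. In KCL-HO-1i/5-FU it had 2.26, 1.41, 2.38, 1.65 and 0.391 CPM, and in vehicle 5.07, 1.45, 8.97, 2.80 and 1.64 CPM. Of the 5 KCL-HO-1i/5-FU libraries 4 were below every 5-FU library, and the fifth equalled the lowest at this precision. The share of all tested genes with such a separation is not given. The gene overlaps Gucd1, at 16.7 to 53.9 CPM, on the opposite strand.

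Dpys and Upb1 are known for liver and kidney, so markers of these organs were read in the same libraries. Fga of hepatocytes, and Umod and Kap of the kidney, had 0 reads in all 30 libraries, and Alb reached at most 7 reads. Of the other hepatocyte markers, Cyp2e1, which adipocytes also express, reached 110 CPM and Fgb 8.41 CPM. The summed level of the 8 kidney markers was at most 3.1 CPM.

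KCL-HO-1i/5-FU against vehicle compares the combination with untreated tumors. Of the 8 tested genes 2 had an unadjusted p under 0.05, both lower (Tyms and Umps), against 17.6% of all genes in either direction and 7.84% lower. Umps stood at 0.69 of the vehicle level (log2 fold change -0.54, SE 0.16, adjusted p = 0.119, edgeR). Tyms stood at 0.66 of it (log2 fold change -0.59, SE 0.24, adjusted p = 0.198, edgeR), and without KCL-HO-1i/5-FU replicate 2 its value was -0.48 and its unadjusted p was above 0.05. Dut was at -0.44 (SE 0.23, adjusted p = 0.326, edgeR), Upb1 at -1.29 (SE 0.71, adjusted p = 0.343, edgeR) and Dpyd at 0.30 (SE 0.69, adjusted p = 0.857, edgeR). The median over the 8 genes was -0.24, against 0.01 over all genes. KCL-HO-1i/5-FU replicate 4 held the highest Umps of its group, so leaving it out lowers the value by itself. Without this replicate Umps passed the adjusted threshold (log2 fold change -0.67, adjusted p = 0.0433, edgeR). On all libraries Umps passed with DESeq2 (adjusted p = 0.0439) and with limma-voom (adjusted p = 0.0427). Its adjusted p over all alternatives ran from 0.0346 to 1.00.

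**Figure D3:**
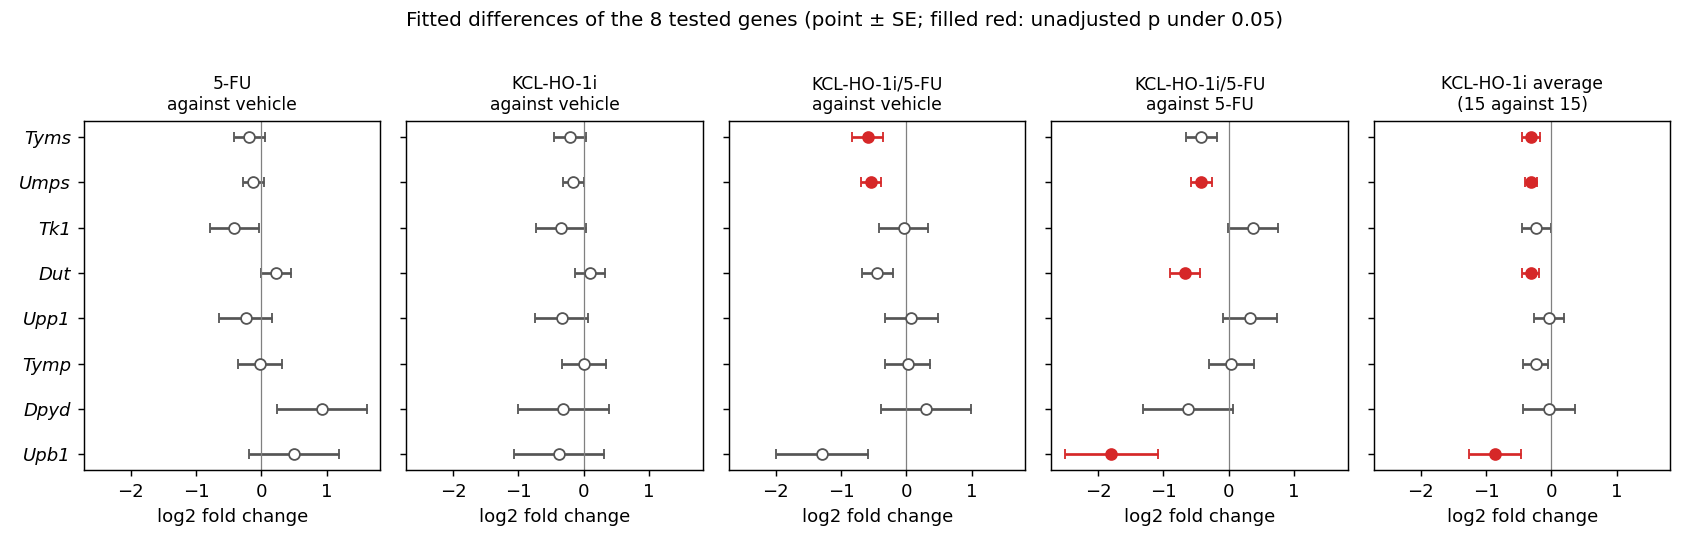
Log2 fold changes (horizontal axis, point ± SE) of the 8 tested genes in 5 comparisons, with filled red points for an unadjusted p under 0.05. Tyms and Umps lie left of 0 in all 5 panels, at -0.59 and -0.54 for KCL-HO-1i/5-FU against vehicle, and the intervals of Dpyd and Upb1 are the widest.

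5-FU alone and KCL-HO-1i alone were each compared with vehicle. In 5-FU against vehicle 0 of the 8 genes had an unadjusted p under 0.05, against 3.89% of all genes. Tyms was at -0.18 (SE 0.24), Umps at -0.12 (SE 0.16) and Dut at 0.23 (SE 0.23), and the median over the 8 was -0.07. In KCL-HO-1i against vehicle the count was also 0 of 8, against 9.43% of all genes, with Tyms at -0.21 (SE 0.24), Umps at -0.16 (SE 0.16) and a median over the 8 of -0.26. These comparisons and the one above share the vehicle libraries. KCL-HO-1i/gemcitabine against vehicle gave 0 of 8, against 19.8% of all genes, with Umps at -0.18 (SE 0.16).

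For gemcitabine, the log2 fold change against vehicle was 0.47 (SE 0.23, adjusted p = 0.941, edgeR) for Dut and 0.29 (SE 0.24, adjusted p = 0.941, edgeR) for Tyms. None of the 8 genes had an unadjusted p under 0.05, against 3.83% of all genes, and Tyms was at -0.03 with the S phase score described further on as a covariate.

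Against 5-FU alone, KCL-HO-1i/5-FU had 3 of the 8 genes lower at an unadjusted p under 0.05, namely Dut, Umps and Upb1, against 11.4% of all genes in either direction. Dut was at -0.67 (SE 0.23, adjusted p = 0.327, edgeR), Umps at -0.42 (SE 0.16, adjusted p = 0.346, edgeR), Upb1 at -1.80 (SE 0.71, adjusted p = 0.359, edgeR) and Tyms at -0.42 (SE 0.24, adjusted p = 0.504, edgeR). The library 5-FU replicate 4 weighed on all of these, since it held the highest Dut, Umps, Upb1 and Tyms of its group. It was dropped together with gemcitabine replicate 1, a pair picked after the values were seen. Leaving 5-FU replicate 4 out narrows these differences by itself and is no test of the genes. Without this pair, Dut was at -0.38, Umps at -0.28, Upb1 at -0.84 and Tyms at -0.18. The unadjusted p of each was above 0.05, so that 0 of 8 remained below it. Against KCL-HO-1i alone, KCL-HO-1i/5-FU had 2 of the 8 lower, Dut at -0.54 (SE 0.23, adjusted p = 0.239, edgeR) and Umps at -0.38 (SE 0.16, adjusted p = 0.222, edgeR), against 16.9% of all genes. Tyms was at -0.39 (SE 0.24, adjusted p = 0.426, edgeR).

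Averaged over tumors without and with KCL-HO-1i, 5-FU gave 1 gene of 8, Umps, at -0.25 (SE 0.11, adjusted p = 0.393, edgeR), against 12.0% of all genes. Its unadjusted p was under 0.05 in 27 of 41 alternatives. Tyms was at -0.28 (SE 0.17) and Dpyd at 0.77 (SE 0.49). Whether the 5-FU difference itself depended on KCL-HO-1i was tested as an interaction. Dut had an interaction of -0.77 on the log2 scale (SE 0.33, adjusted p = 0.519, edgeR), and it was the 1 gene of 8 with an unadjusted p under 0.05, against 8.53% of all genes. Without 5-FU replicate 4 it was -0.46, with an unadjusted p above 0.05. This library held the highest Dut of its group, so leaving it out narrows the interaction by itself.

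KCL-HO-1i averaged over vehicle, 5-FU and gemcitabine compared 15 libraries with 15. All 8 genes had a negative log2 fold change, where 50.2% of all genes did, and 4 of 8 were lower at an unadjusted p under 0.05 (Umps, Tyms, Dut and Upb1), against 23.0% of all genes in either direction and 9.22% lower. Umps was at -0.31 (SE 0.09, adjusted p = 0.0605, edgeR), Tyms at -0.31 (SE 0.14, adjusted p = 0.174, edgeR), Dut at -0.31 (SE 0.13, adjusted p = 0.172, edgeR) and Upb1 at -0.86 (SE 0.40, adjusted p = 0.200, edgeR). The median over the 8 genes was -0.27, against 0.00 over all genes. Dpyd at -0.03 (SE 0.40) and Upp1 at -0.04 (SE 0.23) were negative by much less than their SE. Tyms, Umps and Dut varied together over the libraries (r from 0.74 to 0.89), so the 8 signs are not independent. Umps passed the adjusted threshold when any 1 of 4 libraries was left out, 5-FU replicate 5, gemcitabine replicate 5, KCL-HO-1i replicate 5 or KCL-HO-1i/5-FU replicate 4, with log2 fold changes of -0.36, -0.33, -0.34 and -0.37 and adjusted p of 0.0392, 0.0346, 0.0476 and 0.0292 (edgeR). Of these, 5-FU replicate 5 held the lowest Umps of its group, and KCL-HO-1i replicate 5 and KCL-HO-1i/5-FU replicate 4 the highest of theirs. Leaving such libraries out widens the difference by itself and is no test of Umps. With the S phase score as a covariate Umps was at -0.11 (SE 0.08, adjusted p = 0.563, edgeR) and the count at an unadjusted p under 0.05 was 0 of 8. With the number in the label codes as a covariate Umps was at -0.13 (SE 0.26, adjusted p = 0.880, edgeR) and the count was 1 of 8. Without 5-FU replicate 4 and gemcitabine replicate 1, the count at an unadjusted p under 0.05 was 1 of 8 in place of 4, Umps at -0.26 (SE 0.09). This pair was picked after the values were seen. Both libraries were above the means of their groups for Tyms, Umps and Dut. Leaving them out narrows the difference by itself and is no test of these genes. For any difference among the 6 groups, Umps, Dut and Tyms had an unadjusted p under 0.05, 3 of 8 against 18.7% of all genes, and their smallest adjusted p was 0.134 (edgeR), for Umps.

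Tyms, Umps, Dut and Tk1 are used by cells that copy their DNA, and their levels were compared with a score of S phase, the mean log2 CPM of 26 replication genes that did not include them. Over 30 libraries, Pearson's r with the score was 0.85 for Umps (Spearman's rho 0.80), 0.80 for Tyms (rho 0.63), 0.79 for Dut (rho 0.67) and 0.61 for Tk1 (rho 0.39). The adjusted permutation p of r was 0.000267 for Umps, Tyms and Dut, where each raw p was 1e-05, the smallest that 100000 resamples can give, and 0.00517 for Tk1. The adjusted permutation p of rho was 0.000267, 0.004, 0.00176 and 0.113 for Umps, Tyms, Dut and Tk1. In all, 160 tests were adjusted together. Without the 2 libraries farthest from the median score, r was 0.85, 0.72, 0.74 and 0.44 for Umps, Tyms, Dut and Tk1. Within groups, as deviations from group means, r was 0.74, 0.70, 0.69 and 0.61, with an adjusted permutation p of 0.0056, 0.0063, 0.0116 and 0.0177, and that of rho was 0.0116, 0.0168, 0.0619 and 0.0252. Upp1, Tymp, Dpyd and Upb1 had r between -0.29 and 0.41 with the score and an adjusted permutation p above 0.05.

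**Figure D4:**
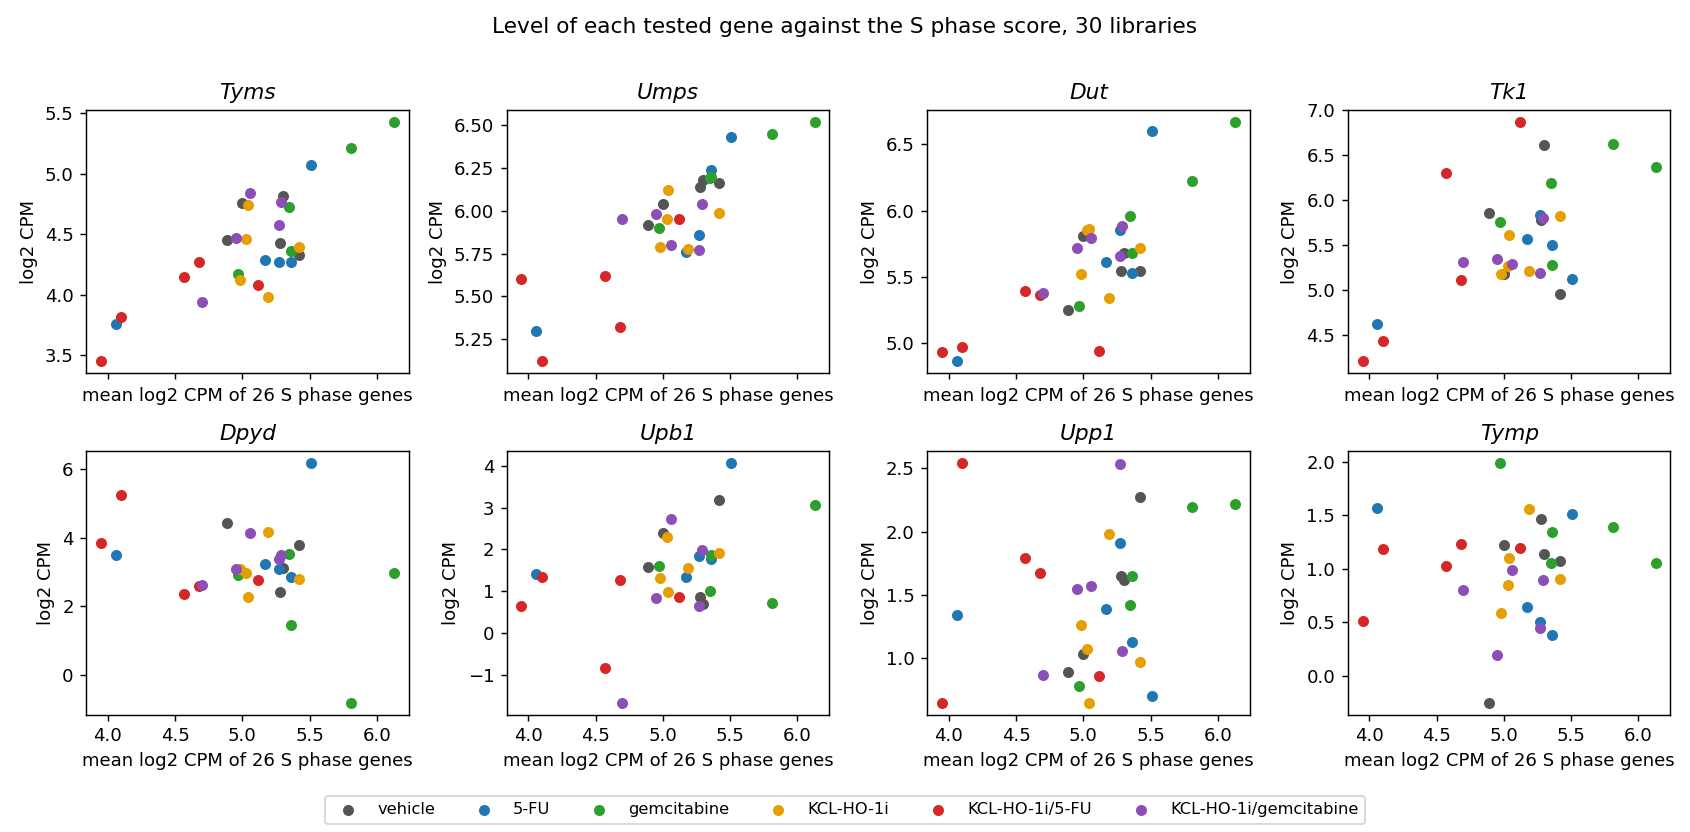
Log2 CPM of each of the 8 tested genes (vertical axes) against the mean log2 CPM of 26 S phase genes (horizontal axes), 30 libraries colored by group. Tyms, Umps and Dut climb with the score, with r of 0.80, 0.85 and 0.79, and 4 of the 5 KCL-HO-1i/5-FU libraries have scores below every vehicle library, while Dpyd, Upb1, Upp1 and Tymp scatter.

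The S phase score was itself low in KCL-HO-1i/5-FU, at 3.95 to 5.12 log2 CPM, against 4.89 to 5.42 in vehicle, 4.06 to 5.51 in 5-FU and 4.97 to 6.13 in gemcitabine. Measured relative to this score, Tyms stood at -0.53 ± 0.29 in KCL-HO-1i/5-FU and -0.62 ± 0.34 in vehicle, and Umps at 1.04 ± 0.38 and 0.91 ± 0.13 (log2 difference, SD, n = 5). Dut stood at 0.64 ± 0.47 and 0.38 ± 0.26. For all 3 genes the mean relative to the score was above that of vehicle, by less than the larger SD. With the score as a covariate, the log2 fold change for KCL-HO-1i/5-FU against vehicle was -0.12 (SE 0.20) for Tyms, -0.21 (SE 0.13) for Umps and 0.07 (SE 0.20) for Dut. The score was measured in the same libraries after treatment. Wherever it is a covariate, it also takes up any difference between groups that runs with it. Whether S phase accounts for the lower levels was not tested.

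By likeness of pattern over the 30 libraries, the tested genes closest to Dut were Hpf1 (r = 0.93), Orc6 and Pcna (both 0.92), and the closest to Umps were Kars, Prim1 (both 0.91) and Parp1 (0.90). Those closest to Tyms were Srsf3 (0.92), Cenps and Ppil1 (both 0.90). Orc6, Pcna and Prim1 encode proteins of DNA replication. The closest to Tk1 were Birc5 (0.86), which lies next to it on chromosome 11 and is a mitotic gene, Iqgap3 (0.80) and Tedc1 (0.78). For Dpyd they were Zfp36l1 (0.80), Foxred2 and Foxp1 (both 0.68), for Upb1 1700019D03Rik (0.78), Zfp141 and Arg1 (both 0.77), for Upp1 Adm, Map7d1 (both 0.78) and Id1 (0.77), and for Tymp Zfp12 (0.56), Ptpmt1 (0.53) and Ptpn4 (0.50). Each was among the 3 highest of 11462 or 11463 genes, and the libraries share depth and tumor, so these values describe the pattern alone. Among the genes themselves, Tyms and Dut were the closest pair (r = 0.89).

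The neighbors of these enzymes in metabolism were read as lists, and no gene of them passed the adjusted threshold in KCL-HO-1i/5-FU against vehicle. The genes named from these lists and from the S phase list were picked for small p in 2 comparisons. Both comparisons use the same KCL-HO-1i/5-FU libraries, so the named genes are not typical of their lists. Of 25 other tested genes of pyrimidine synthesis and salvage, 5 were lower and 1 higher at an unadjusted p under 0.05 (median -0.26). Rrm1 and Rrm2, the subunits of ribonucleotide reductase, had log2 fold changes of -0.92 (SE 0.24) and -1.21 (SE 0.44), and Nt5c, a nucleotidase that removes phosphate from dUMP and its fluoro form, was at 0.74 (SE 0.23). Of 17 genes of the folate cycle, which supplies the cofactor of Tyms, 4 were lower and 0 higher (median -0.29). Shmt1 and Shmt2, the serine hydroxymethyltransferases, were at -0.60 (SE 0.19) and -0.56 (SE 0.16). Of 14 genes that remove uracil or mismatches from DNA, 7 were lower and 0 higher (median -0.31), among them Parp1 at -0.55 (SE 0.15), Tdg at -0.36 (SE 0.15) and Exo1 at -0.91 (SE 0.33). Of 9 tested nucleoside and drug transporters, 1 was lower, Slc28a3 at -1.08 (SE 0.32), a concentrative nucleoside carrier, and 2 were higher, one of them the exporter Abcc3 at 1.53 (SE 0.41). Slc28a2 was measured at 0.447 ± 0.456 CPM and 0.153 ± 0.111 CPM in the same groups (SD, n = 5).

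Lists of the cell cycle stood beside them. Of 26 S phase genes, 16 were lower and 0 higher (median -0.67), with Gins1 at -1.08 (SE 0.37), Rfc4 at -0.73 (SE 0.26), Pola2 at -0.71 (SE 0.23) and Uhrf1 at -0.98 (SE 0.30). Of 16 mitosis genes, 14 were lower and 0 higher (median -1.04), with Mki67 at -1.17 (SE 0.42) and Top2a at -0.51 (SE 0.37). Of 14 p53 target genes, 3 were higher and 0 lower (median 0.35). Cdkn1a, the inhibitor of cyclin-dependent kinases, was at 1.08 (SE 0.44) and Mdm2 at 0.20 (SE 0.11). Over all genes 7.84% were lower and 9.79% higher at this p, and the median was 0.01. The lists were also read without KCL-HO-1i/5-FU replicates 4 and 5, a pair picked after the values were seen. Replicate 4 had the highest mean log2 CPM of its group for S phase, mitosis, repair and folate genes. Leaving it out lowers these lists by itself and is no test of them. Without KCL-HO-1i/5-FU replicates 4 and 5, the counts lower were 21 of 26 S phase genes, 15 of 16 mitosis genes, 8 of 14 repair genes and 7 of 17 folate genes, of which 10, 9, 3 and 1 fell past an adjusted p of 0.05 (edgeR). With the same libraries left out, calls over all genes rose as well, from 0% to 3.00% at the adjusted threshold and from 17.6% to 20.2% at an unadjusted p under 0.05.

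**Figure D5:**
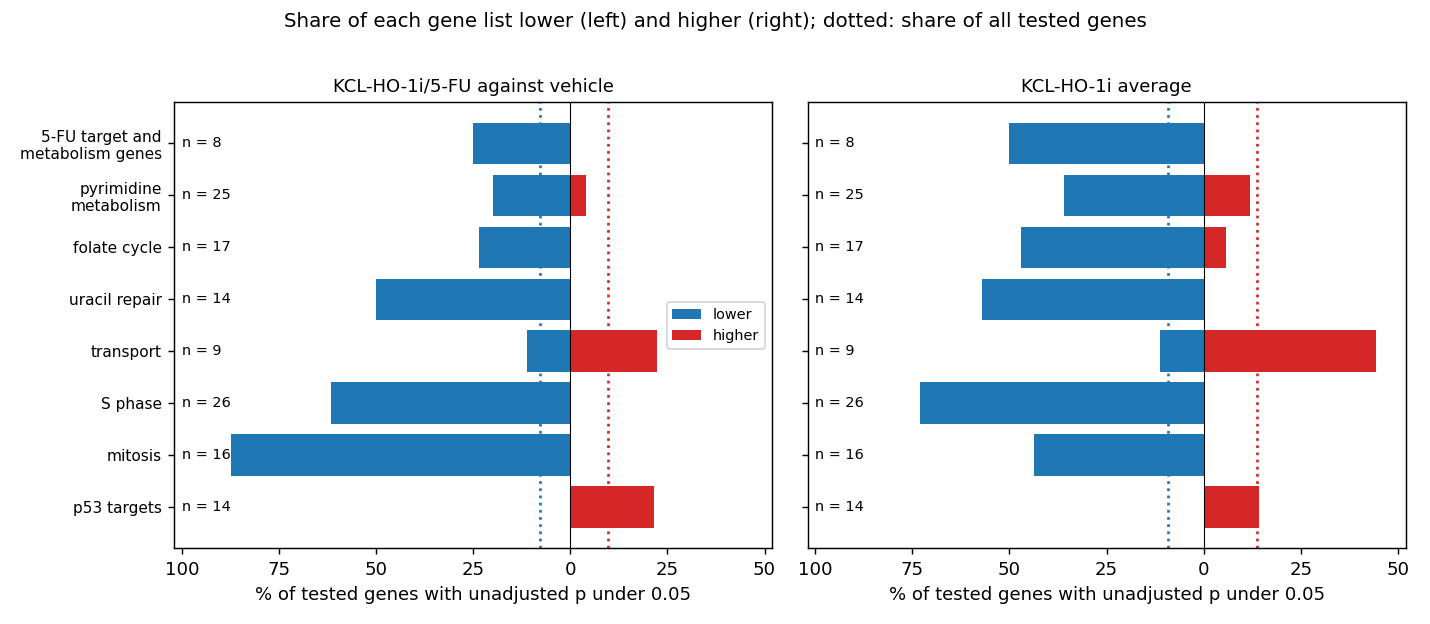
Share of the tested genes of each list with an unadjusted p under 0.05 (horizontal axis, percent), lower in blue to the left and higher in red to the right, for KCL-HO-1i/5-FU against vehicle and for KCL-HO-1i averaged over its backgrounds. Dotted lines are the shares over all tested genes, 7.84% lower and 9.79% higher in the first panel and 9.22% and 13.7% in the second. S phase and mitosis genes have the longest bars to the left, 16 of 26 and 14 of 16 in the first panel.

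Markers of other cell types were read in the same comparisons. Averaged over its backgrounds, 10 of 12 macrophage markers, 9 of 9 fibroblast markers, 12 of 12 adipocyte markers and 10 of 10 skeletal muscle markers were higher at an unadjusted p under 0.05, with medians of 0.78, 1.41, 2.25 and 3.31 on the log2 scale, and none passed the adjusted threshold in edgeR. Over all genes 13.7% were higher at this p. The highest summed muscle and adipocyte levels sat in few libraries. Summed muscle markers were at 13730 CPM in KCL-HO-1i/gemcitabine replicate 2, 4570 in KCL-HO-1i replicate 4 and 1729 in KCL-HO-1i replicate 3, and at most 335 CPM in the other 27 libraries. Summed adipocyte markers were at 9750 and 8554 CPM in the first 2 of these and at most 2160 CPM elsewhere. Of 9 luminal markers 2 were lower (median -0.14). Of 5 tested neutrophil markers 3 were higher (median 0.94), of 8 endothelial markers 4 (median 0.66) and of 7 T cell markers 0 (median -0.07). In KCL-HO-1i/5-FU against vehicle the counts higher were 7 of 12 macrophage, 6 of 9 fibroblast, 1 of 5 neutrophil and 1 of 8 endothelial markers, and 0 of the adipocyte, muscle and T cell markers. The summed macrophage level was 256 to 1127 CPM in vehicle and 850 to 2494 CPM in KCL-HO-1i/5-FU, and all 12 markers were above 0 in every library. The summed adipocyte level was 107 to 534 CPM in vehicle and 74.6 to 640 CPM in KCL-HO-1i/5-FU, and Adipoq was at 0 in 3 libraries. The level of Umps was negatively related to the macrophage score over 30 libraries (r = -0.52, rho = -0.48, adjusted permutation p = 0.0177 and 0.0368), as was that of Tyms (r = -0.48, rho = -0.38, adjusted permutation p = 0.0335 and 0.122) and of Tymp (r = -0.47, rho = -0.53, adjusted permutation p = 0.0391 and 0.0178). Without the 2 libraries farthest from the median score r was -0.43, -0.50 and -0.56. Within groups r was -0.39, -0.43 and -0.45, and none of these passed (adjusted permutation p = 0.194, 0.128 and 0.0903). Dpyd was negatively related to the luminal score (r = -0.53, rho = -0.43, adjusted permutation p = 0.0177 and 0.0762). Without the 2 libraries farthest from the median score r was -0.22, so this r depends largely on them. Within groups r was -0.59 and rho -0.52 (adjusted permutation p = 0.0102 and 0.0234), and r was -0.34 without such a pair. The part of these cell types in the levels of the 9 genes was not tested.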

How the data were processed

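Per the labels, RNA of MMTV-PyMT mammary tumors was made into libraries with a directional kit. The authors checked reads with FastQC 0.11.9, aligned with STAR 2.7.9a to mm10 and quantified with Salmon 1.9.0 and tximport. The annotation release and whether counting used strand are not given in the sources used here. The deposited values are expected counts per gene, unscaled and unpooled, and 38% of them are not whole. They were rounded here, after which 3284 genes had no reads.

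Members and lists were chosen with earlier results of these data known. The named genes were the 9 members, up to 2 genes per metabolic or S phase list with the smallest p in each of 2 comparisons (5-FU averaged over without and with KCL-HO-1i, and KCL-HO-1i/5-FU compared with KCL-HO-1i alone), Cdkn1a, Mdm2, Mki67, Top2a and the 3 genes most like each member. Marker genes of other cell types, overlapping genes and chromosomal neighbors were named beside these.

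All 30 libraries entered 1 edgeR 4.0.16 fit in R 4.3.3 (TMM, filterByExpr by group with minimum count 10, robust quasi-likelihood, 6 group means), which tested 13663 genes and left out 8178 (0.0564% of counts). The common biological coefficient of variation was 0.401. P-values are two-sided, Benjamini-Hochberg adjusted, with a threshold of 0.05. Log2 CPM used a prior count of 2. Correlations used 100000 permutations (scipy 1.17.1). The pipeline was tested on simulated data. Lengths and positions came from GENCODE M21 (GRCm38) and upstream sequences from RefSeq GRCm38.p6. Floors cover counting error only. The SE of a log2 fold change comes from the edgeR fit and includes the spread between libraries.

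Alternatives were DESeq2 1.42.0, limma-voom (limma 3.58.1) with quality weights, RLE scaling, tests on unfiltered genes or on genes averaging 50 counts or more, a block for the replicate number, the number in the label codes or the S phase score as a covariate, only the groups compared, and each library left out. Dropping 2 pairs of libraries was added after the data were seen.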

Additional observations from a re-analysis of the deposited data

Results flagged for a closer look

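In 7 of the 48 combinations of a gene and a group, 1 library stood apart from the other 4 by Dixon's criterion (gap over range above 0.71). Chance flags about 1 in 20 groups of normally distributed values, a rough guide here, since linear CPM need not be normal. All 7 flags were high libraries. Dpyd had 3 of these, 71.7 CPM in 5-FU replicate 4 (others 6.98 to 11 CPM), 17.8 CPM in KCL-HO-1i replicate 4 (others 4.7 to 8.36 CPM) and 37.7 CPM in KCL-HO-1i/5-FU replicate 3 (others 4.93 to 14.2 CPM). Upb1 was at 16.6 CPM in 5-FU replicate 4, where the others had 2.38 to 3.43 CPM. The same library, 5-FU replicate 4, held the highest Tyms (33.4 CPM), Umps (86.3 CPM) and Dut (97 CPM) of its group.

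Upp1 was at 5.63 CPM in KCL-HO-1i/gemcitabine replicate 2 (others 1.66 to 2.81 CPM). Tymp was at 3.8 CPM in gemcitabine replicate 4 (others 1.92 to 2.45 CPM). Tk1 was at 55.4 CPM in KCL-HO-1i/gemcitabine replicate 1 (others 36.3 to 40.3 CPM). No gene of the 9 differed between the 5-FU effects without and with KCL-HO-1i past the adjusted threshold of the interaction (edgeR), and no file was left unused.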

How the results depend on the processing

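The count of the 8 tested genes past the adjusted threshold was 0 in all 11 comparisons and moved in 12 of the 449 values computed under alternatives. For KCL-HO-1i/5-FU against vehicle it was 1 with DESeq2 and with limma-voom, 0 to 1 with each library left out, and 1 without KCL-HO-1i/5-FU replicates 4 and 5. For KCL-HO-1i averaged over its backgrounds it was 1 with DESeq2, 0 to 1 with each library left out, and 2 without KCL-HO-1i/5-FU replicates 4 and 5. For any difference among the 6 groups it was 1 with DESeq2 and with limma-voom. The gene was Umps in each, joined by Tk1 where it was 2, as follows from leaving out its highest libraries of that group. The cause was otherwise not tested. Over all genes the counts in these comparisons were 0, 8 and 89 in edgeR, 408, 1139 and 953 with DESeq2, and 169 and 283 in the first and last with limma-voom. With the replicate number as a block, the count was 0 in all 11 comparisons. Same-numbered libraries of different groups did not deviate together (mean correlation 0.00284 over 75 pairs, lowest -0.583), so the number does not pair them.

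Of 1304 alternative values of single genes, 21 reversed in sign, none of them past the adjusted threshold. With the S phase score as a covariate, Tyms was at -0.03 in gemcitabine against vehicle, 0.05 for KCL-HO-1i/5-FU compared with KCL-HO-1i alone and 0.03 compared with 5-FU alone. Dut was then at 0.07 in KCL-HO-1i/5-FU against vehicle and 0.01 in the KCL-HO-1i average, and Tk1 at 0.46 and 0.09. With the number in the label codes as a covariate, which left 12 residual degrees of freedom, Dpyd was at 0.94 in gemcitabine against vehicle, Umps at 0.01 in KCL-HO-1i against vehicle, and Tk1 at 0.25 in KCL-HO-1i/5-FU against vehicle and 0.41 in the average. Dropping 5-FU replicate 4 and gemcitabine replicate 1 gave Dpyd -0.34 and Dut -0.07 in 5-FU against vehicle. The first of these libraries held the highest Dpyd and Dut of its group, so leaving it out lowers both by itself. With each library left out, values in 5-FU against vehicle ran from -0.27 to 0.01 for Umps, -0.34 to 1.3 for Dpyd and -0.07 to 0.40 for Dut, and in KCL-HO-1i/5-FU against vehicle from -0.55 to 0.26 for Tk1 and -0.50 to 0.67 for Dpyd. Dpys and the 8 to 49 reads of Tymp show what depth limits.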
